A study of Mus musculus with 2 samples.

Results

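The 9 genes described here, Sptb, Ank1, Epb41, Epb42, Add1, Add2, Add3, Dmtn and Tmod1, encode the spectrin, ankyrin and junctional parts of the red cell membrane skeleton. They were chosen by symbol, through the GENCODE annotation, from 43346 Ensembl genes in each of 2 libraries. Their 70 annotated transcripts, of 103639 in the deposited tables, are the main subject. Erythroblasts, the cells from which red cells form while they still have a nucleus, were sequenced as total RNA after removal of ribosomal RNA. The labels describe both libraries as primary cells of C57BL/6J mice, adult males of 5 to 6 weeks, and name no treatment, transgene or deletion. The ScriptSeq kit was used on 100 ng of RNA for either library. Both belong to a single group as biological replicates 1 and 2, with separate biosample records that point to the same donor record, so their spread may in part be technical. Since there is no second group to compare with, each value is given per library, or as mean ± SD with n = 2, and no test was run.

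The membrane skeleton is a network of spectrin tetramers under the red cell membrane. Ankyrin ties beta spectrin to the anion exchanger band 3, with protein 4.2 stabilising that link. At the junctions, short actin filaments capped by tropomodulin and adducin are joined to the spectrin tails by protein 4.1R and dematin. Several of these genes are known for start sites and exons whose use changes as erythroblasts mature, which is why transcripts, and not only genes, matter here.

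The 2 libraries held 37312632 and 22464752 expected counts, which are read counts shared out by the quantification model and need not be whole. A count of 0 allows up to 0.0804 and 0.134 CPM (the count over the library total, scaled as in TPM) in replicates 1 and 2. All 10 erythroblast markers were detected, with a summed level of 403550 and 345670 coding-scaled TPM. This unit is TPM (a value per transcript length whose sum is the same in every library) rescaled so that 21461 nuclear protein-coding genes sum to 1000000 in a library, and a gene counted as detected at 1 or more in both libraries. Before rescaling, the 21461 genes held 11.3% and 6.89% of TPM in replicates 1 and 2, so the factor differs between libraries. Epb41, for example, had 375 and 222 TPM before it. Markers of other blood cells were also present: all 7 neutrophil markers were detected with sums of 19670 and 19311, 5 of 7 megakaryocyte markers with sums of 123 and 147, and all 5 monocyte markers with sums of 140 and 122. Of the B cell list 1 of 4 markers was detected, with sums of 8.62 and 3.77. Of the T cell, skeletal muscle and neuron lists, 0 of 4 markers each were detected, and Cd3d, Cd8a, Ckm, Myh1, Snap25, Syt1 and Rbfox3 were listed at 0 in both libraries. The part of these other cells in the values below was not tested.

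All 9 genes were expressed, and their summed level was 8204 and 8884 coding-scaled TPM. Their median was 843 in replicate 1 and 1079 in replicate 2, where the median of 12895 expressed protein-coding genes was 7.02 and 6.96. Even the lowest of them, Add3, stood at the 80.8 percentile of those genes by mean level, and Epb41 stood at 99.9. In bulk RNA, more cells of a type and more RNA per cell cannot be told apart.

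Epb41, which encodes protein 4.1R, had by far the highest level, with 3328 and 3217 coding-scaled TPM (3273 ± 78.5) from 156283 and 90809 counts. It alone held 38.3% of the summed level of the 9 genes. Epb42, which encodes protein 4.2, followed with 1540 and 1444 (1492 ± 67.3). Both libraries of Epb41 lay above both of Epb42, and both of Epb42 above every value of the next gene.

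Ank1, which encodes erythroid ankyrin, had 872 and 1255 coding-scaled TPM (1064 ± 270). Add1, which encodes alpha adducin, had 952 and 1101 (1027 ± 105). Sptb, which encodes beta spectrin, had 843 and 1079 (961 ± 167). The values of these 3 genes overlapped between libraries, so the order among Ank1, Add1 and Sptb is not resolved: in replicate 1 alone Add1 stood above Ank1.

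Dmtn, which encodes the actin-bundling protein dematin, had 258 and 290 coding-scaled TPM (274 ± 22.9), and Add2, which encodes beta adducin, had 221 and 270 (246 ± 35.2). These neighbours overlapped too. Tmod1, which encodes the tropomodulin that caps the slow-growing filament end, had 154 and 194 (174 ± 28.9), below both libraries of Add2. Add3, which encodes gamma adducin, had 36.3 and 32.2 (34.3 ± 2.93), far below all others. This order holds per length: in counts scaled to the protein-coding sum with no length correction, Epb41 stayed first at 7486, followed by Sptb at 5302, Ank1 at 3886, Epb42 at 2211 and Add1 at 1065. The length that TPM divides by is itself a mean over the gene's models, 1616 bases for Add1 and 8116 for Sptb in replicate 1.

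**Figure D1:**
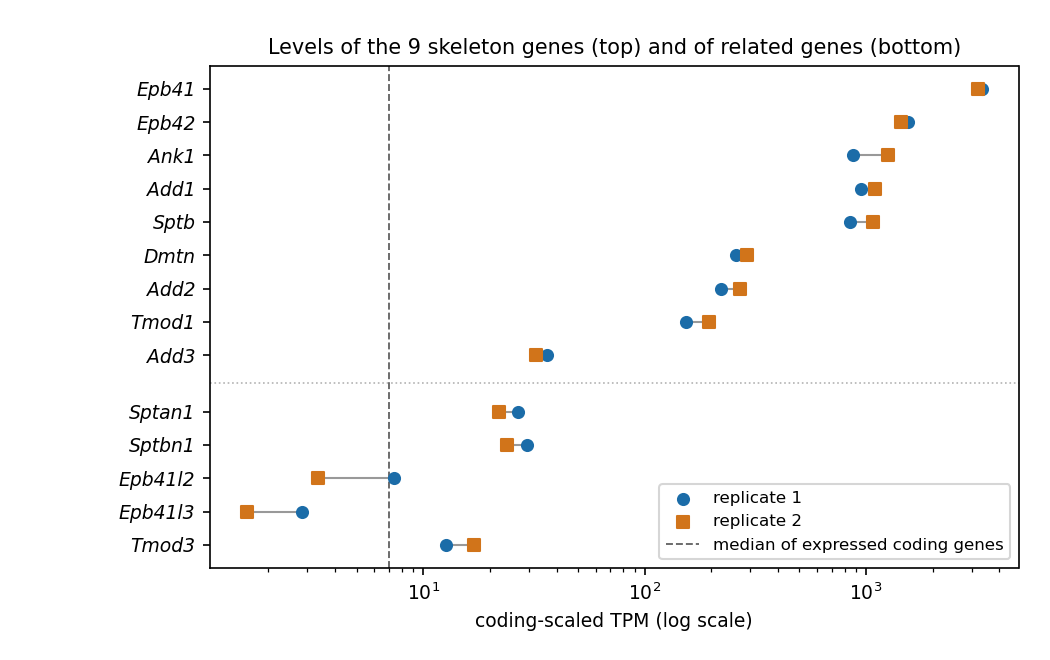
Level of each gene in coding-scaled TPM on a log axis, with a circle for replicate 1 and a square for replicate 2. The top panel holds the 9 skeleton genes, from Epb41 at 3273 to Add3 at 34.3 on average, the bottom panel related genes, and the dashed line is the median of expressed protein-coding genes (6.99).

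Ratios of levels within the complex varied in how closely the libraries matched. Add1 stood 4.31 and 4.07 times above Add2, its partner in the adducin tetramer. This ratio depends on the shorter Add1 models described below. The Add1 models of over 13 exons alone summed to 33.25 and 19.77 TPM before rescaling, beside 24.84 and 18.65 for Add2. In counts with no length correction, Add1 had 1065 and Add2 492 on average. Epb41 stood 3.95 and 2.98 times above Sptb, and Epb42 1.76 and 1.15 times above Ank1, so the latter 2 ratios moved more between libraries. Slc4a1, which encodes band 3, stood 7.81 and 6.34 times above Ank1.

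Sptb stood 28.7 and 45.4 times above Sptbn1, Epb41 451 and 964 times above Epb41l2, and Tmod1 12.2 and 11.5 times above Tmod3. Of 26 related genes, 14 were detected: all 9 partners (Mpp1, Actb, Actg1, Tpm1, Tpm3, Slc4a1 and Gypc among them), 2 of 5 other spectrins, 0 of 2 other ankyrins, 2 of 6 other members of the protein 4.1 family and 1 of 4 other tropomodulin and leiomodin genes. Sptbn1, the widely expressed beta spectrin, had 29.3 and 23.8 coding-scaled TPM, and Sptan1, the widely expressed alpha spectrin, had 26.8 and 21.9. Epb41l2 had 7.38 and 3.34, Epb41l3 2.84 and 1.60, and Tmod3, the widely expressed tropomodulin, 12.6 and 17.0.

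The paralogues that did not pass had few or no counts. Ank2 (0.355 and 2.76 coding-scaled TPM), Epb41l4b (4.09 and 0) and Tmod4 (0.178 and 3.63) were above the limit of 1 in 1 library only. Ank2 had 21 and 11 counts and Ank3 had 2 and 2. Epb41l5, Tmod2 and Lmod1 had 0 counts in both libraries. Sptbn4 had 21 and 17 counts, Sptbn5 28 and 4, Epb41l1 34 and 30, Epb41l4a 0 and 5, Epb41l4b 62 and 0, and Tmod4 3 and 17.

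At the level of transcripts, 6 of the 9 genes had a leading transcript with over 50% of the gene's TPM in both libraries: Sptb, Epb42, Add2, Add3, Dmtn and Tmod1. Add2 has a single transcript in the deposited tables, so its 100% holds by construction, and nothing can be said of its isoforms. The other 3 genes, Ank1, Epb41 and Add1, spread their TPM over many transcripts. Of the 70 transcripts, 25 had a mean share of at least 10%, and 5 had 0 counts in both libraries. The leader was the same in both libraries for 8 genes, the exception being Add1.

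The shares depend on the length of the models. TPM divides counts by length, so a short model takes a large share from few reads: the 7 Add1 models under 1000 bases, of 18 such models in the 9 genes, held 58.65% and 68.0% of Add1 TPM but 14.3% and 23.1% of Add1 counts. For Epb41 the 2 such models held 30.04% and 11.4% of TPM but 4.27% and 1.43% of counts. By counts, the leader of Add1 became Add1-205 in both libraries, and that of Epb41 became Epb41-215 in replicate 1 and Epb41-212 in replicate 2. The other 7 genes kept their leader. The effective length that TPM divides by also differed between libraries, which weighs most on short models. For Add1-206 it was 217 bases in replicate 1 and 256 in replicate 2. The labelled size range was wider at both ends in replicate 2 than in replicate 1. The part of this difference in the gaps between libraries was not tested.

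**Figure D2:**
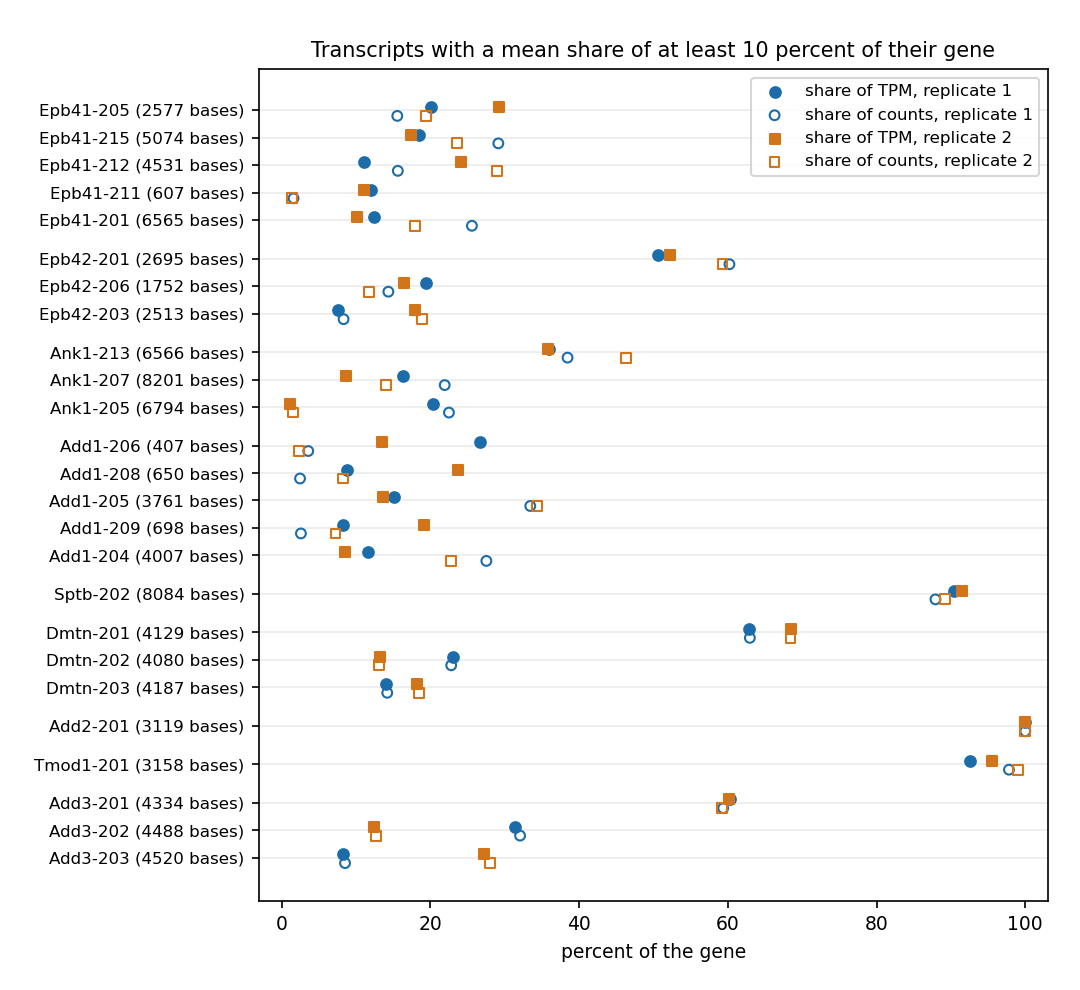
Percent of each gene held by every transcript with a mean share of at least 10%, with the model's length in bases. Filled symbols are shares of TPM and open symbols shares of expected counts, with circles for replicate 1 and squares for replicate 2. Sptb-202 and Tmod1-201 sit above 85%, while short Add1 models such as Add1-206 hold a far larger share of TPM than of counts.

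Sptb (ENSMUSG00000021061, chr12:76580488-76710547, GRCm38, minus strand) was expressed almost wholly as the shorter of 2 coding transcripts. Sptb-202 held 90.4% and 91.5% of Sptb TPM (85.8 and 68.1 TPM, 91458 and 60671 counts), and Sptb-201 held 9.61% and 8.53%. The third model, Sptb-203, is a retained intron with 0 counts in both libraries. Beta spectrin is known to have a short carboxyl terminus in red cells and a longer one in muscle and brain. The models differ in the same way: Sptb-202 has 32 exons and 2137 codons, and Sptb-201 has 36 exons and 2329 codons. They part after codon 2115, where Sptb-202 reads on into its own last exon (chr12:76597666-76597725, GRCm38, minus strand) for 22 more codons and Sptb-201 splices to the next exon (chr12:76587531-76587590) for 214 more. The ends are shown because they separate the 2 products; capitals mark the first 60 coding bases of each model's own sequence.
Sptb-202: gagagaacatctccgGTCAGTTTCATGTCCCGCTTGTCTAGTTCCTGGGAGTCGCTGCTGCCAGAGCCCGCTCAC
Sptb-201: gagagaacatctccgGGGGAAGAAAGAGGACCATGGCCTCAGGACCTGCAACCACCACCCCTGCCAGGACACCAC

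The models start at different sites as well, Sptb-202 at position 76710023 and Sptb-201 at 76710547 of chromosome 12. Start and end shares of Sptb are therefore the same values, and the files cannot show the 2 choices apart. The share was close in the libraries, with 90.9% ± 0.756, and by counts it was 88.6%.

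Ank1 (ENSMUSG00000031543, chr8:22974844-23150497, plus strand) spread over 17 transcripts, of which 3 passed 10%. Ank1-213 led with 35.95% and 35.82% of Ank1 TPM, the closest match among the leading shares of the 3 genes without a dominant transcript. Ank1-207 held 16.3% and 8.64%. Ank1-205 held 20.3% in replicate 1 but 1.12% in replicate 2, and Ank1-206, which has 1862 codons in place of 1887, held 0.20% and 12.2%. The deposited credibility bounds of Ank1-205 were 18.4 to 20.8 TPM in replicate 1 and 0.288 to 1.78 TPM in replicate 2, so the libraries differed by more than those bounds. By counts Ank1-213 held 38.5% and 46.3%, so its close match holds for shares of TPM and not for shares of counts. The shares of Ank1-205 and Ank1-206 still differed far more between the libraries than the leader's. The other 14 transcripts had mean shares of up to 8.96%, among them the retained introns Ank1-212 (10.3% and 7.63%) and Ank1-211 (4.07% and 13.4%).

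By first exon, Ank1-213 and its companions led in both libraries. Ank1 is known to use alternative first exons, among them one active in erythroid cells. Among the 11 transcripts of over 30 exons, those that start between 23035099 and 23035231 of chromosome 8 (Ank1-213, Ank1-205 and Ank1-206) held 71.5% and 78.1% of the TPM of these 11. Over all 17 Ank1 transcripts the same group held 56.5% and 49.1%, wider apart than Ank1-213 alone. Those that start between 23058259 and 23058525, Ank1-207 among them, held 28.3% and 21.1% of the 11. The 3 transcripts that start farthest upstream, from 22974844 to 22975136, held 0.206% and 0.863%. The first coding bases of the leaders of both groups are given because they encode different amino ends; capitals mark the first coding exon (chr8:23035231-23035245 and chr8:23058632-23058670, GRCm38, plus strand) and lower case the next shared bases.
Ank1-213: ATGGGCTTCTGTAAAgccgatgct
Ank1-207: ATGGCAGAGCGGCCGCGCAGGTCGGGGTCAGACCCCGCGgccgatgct

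Toward its end Ank1 has an exon with 2 forms, chr8:23141164-23141304 and chr8:23141164-23141229 on the plus strand. The long form, which adds 75 coding bases, made up 68.2% and 48.3% of the TPM of transcripts with either form. By counts it made up 66.9% and 55.4%. Ank1-205 holds the long form and Ank1-206 the short form, so the gaps between libraries in these models enter the values. The next exon, of 125 bases (chr8:23141596-23141720), was included at 54.9% and 53.0%, and Ank1-213 skips it. These exons lie in the part that encodes the regulatory carboxyl domain of ankyrin, where splicing is known to be varied. Capitals mark the bases only the long form holds.
Ank1 long form: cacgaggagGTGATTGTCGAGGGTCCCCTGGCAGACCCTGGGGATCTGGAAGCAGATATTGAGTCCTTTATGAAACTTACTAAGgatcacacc

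A 24-base exon of Ank1 (chr8:23110347-23110370) was included at 27.9% and 18.8%. In the annotation all 5 long models that start near Ank1-207 hold it and none of the 3 that start near Ank1-213 does, so its inclusion largely follows the first exon shares and is hardly a separate measurement. An exon of 375 bases with 98.2% and 21.7% rested on Ank1-202 and Ank1-203, with 0.57 and 0.23 TPM in all, too little to read. Capitals mark the 24-base exon.
Ank1 24-base exon: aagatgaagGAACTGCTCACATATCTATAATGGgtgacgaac

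Small Ank1 transcripts that start between 23139030 and 23139277 held 5.03% and 6.61% of Ank1 TPM, and 0.858% and 1.67% of its counts. Ank1-201 had 421 and 266 counts and Ank1-208 257 and 540. Short products from this internal start are known from muscle, and 0 of 4 muscle markers were detected here, with sums of 0.977 and 1.02 coding-scaled TPM. The antisense gene Gm15816 lies over the same stretch and had 4 and 38 counts. Whether reads were counted by strand is not given in the sources used here.

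Epb41 (ENSMUSG00000028906, chr4:131923413-132075321, minus strand) had 18 transcripts and no dominant one. Epb41-205 held 20.1% and 29.2% of Epb41 TPM, Epb41-215 18.4% and 17.5%, Epb41-212 11.1% and 24.1%, Epb41-201 12.4% and 10.2%, and Epb41-211, a processed transcript of 607 bases, 11.98% and 11.0%. Epb41-212 is annotated as incomplete at its start. Only Epb41-205 and Epb41-201 of these encode a full product, of 858 codons each. Protein-coding models together held 47.4% and 67.0% of Epb41 TPM, and 60.9% and 70.04% of its counts. Epb41-209, a processed transcript of 644 bases, held 18.1% in replicate 1 and 0.39% in replicate 2 (4150 and 48 counts). Its deposited bounds were 60.6 to 72.5 TPM and 0.196 to 1.95 TPM, which do not overlap.

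The exons that encode the spectrin-actin binding domain of protein 4.1R were partly included. Within this domain lie exons of 57, 42 and 63 bases, the last of which, usually numbered exon 16, is known to be switched on late in red cell development and to be needed for tight binding of spectrin and actin. The 63-base exon (chr4:131962924-131962986, GRCm38, minus strand) was included at 69.2% and 76.9% of the TPM of 14 transcripts that hold or skip it. The 42-base exon (chr4:131963929-131963970) was included at 49.4% and 46.7%, and the 57-base exon (chr4:131964131-131964187) at 51.8% and 48.1%. Every model with the 57- or 42-base exon also holds the 63-base exon, so its inclusion cannot fall below theirs. That order is set by the annotation and is not a result. The values of the 57- and 42-base exons overlapped. All 3 lengths are multiples of 3 and keep the reading frame. The exons are shown in capitals with 9 flanking bases of Epb41-201.
Epb41 57-base exon: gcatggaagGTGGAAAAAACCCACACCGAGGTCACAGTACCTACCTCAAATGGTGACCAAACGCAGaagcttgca
Epb41 42-base exon: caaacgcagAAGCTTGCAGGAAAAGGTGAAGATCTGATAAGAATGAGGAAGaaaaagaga
Epb41 63-base exon: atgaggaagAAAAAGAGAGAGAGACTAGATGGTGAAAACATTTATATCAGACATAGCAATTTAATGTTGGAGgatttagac

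The combinations show how these values arise. Transcripts with all 3 exons held 49.4% and 46.7% of the TPM over the region. Those with none held 30.8% and 23.1%, and those with the 63-base exon alone held 17.4% and 28.8%. Models with the 57- and 63-base exons held 2.38% and 1.38%, and those with the 42- and 63-base exons 0 and 0.00534%. The share without any of the exons came mainly from Epb41-215, which the annotation does not class as coding. Over protein-coding models alone the mean inclusion of the 63-base exon was 96.5%, against 73.0% ± 5.43 over all models.

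A second choice lies near the start of the Epb41 message. The gene is known to make a long product from an upstream start codon and a shorter one from a start codon farther on, and the upstream codon is kept or removed by the choice of a splice acceptor. The exon form that keeps it holds 17 more bases (chr4:132007422-132007438, minus strand), shown here with 12 bases that follow and with the start codon in capitals.
Epb41 upstream start codon: gaacatcATGacaacagagaagagtttag

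Among all 12 models with either form, those that keep the codon held 73.5% and 70.1% of TPM. This includes 3 models, Epb41-205 among them, that begin between 132007431 and 132007438 and so hold no upstream exon; Epb41-205 begins at the codon itself. Among the 9 models with an exon upstream, the codon was kept at 63.1% and 40.02%, and without Epb41-209 at 42.7% and 39.2%. By counts, with all 9 models, it was kept at 50.1% and 44.7%. The apparent gap between the libraries thus rested on Epb41-209.

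In the annotation the start codon is skipped in 2 models, Epb41-215 and Epb41-204, and both begin at the farthest upstream first exon, between 132075264 and 132075321. Among the 4 models of that first exon, these 2 held 50.4% and 94.5% of TPM, and 97.9% and 96.5% without Epb41-209. Both models that start at 132072097 (Epb41-201 and Epb41-214) keep the codon. A coupling of first exon and acceptor is known for this gene, and here the structures are the annotation's while only their weights were measured. The models of the farthest upstream start held 73.3% and 63.5% of the TPM of models with an upstream exon, and 58.5% and 63.004% without Epb41-209. Of the whole gene, start groups at 132075264 to 132075321, 132072097 and 132049078 to 132049091 held 27.98% ± 13.1, 11.3% ± 1.55 and 0.847% ± 0.452 of TPM.

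RefSeq places 3 Epb41 starts, at 132075313, 132072097 and 132049078, inside these groups. The 250 bases before each are shown because the start shares bear on them (chr4:132075314-132075563, chr4:132072098-132072347 and chr4:132049079-132049328, GRCm38.p6, minus strand). Capitals mark AGATAA or TGATAA or AGATAG or TGATAG, letters that the erythroid factor GATA1 can bind, and CCNCNCCC, a pattern bound by KLF1 and related factors, on either strand and with overlaps counted.
Epb41 start at 132075313: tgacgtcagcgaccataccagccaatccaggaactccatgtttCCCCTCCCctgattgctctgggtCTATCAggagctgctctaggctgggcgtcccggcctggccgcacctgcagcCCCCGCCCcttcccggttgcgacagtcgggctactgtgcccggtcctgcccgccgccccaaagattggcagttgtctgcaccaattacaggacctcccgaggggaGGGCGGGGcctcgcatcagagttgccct
Epb41 start at 132072097: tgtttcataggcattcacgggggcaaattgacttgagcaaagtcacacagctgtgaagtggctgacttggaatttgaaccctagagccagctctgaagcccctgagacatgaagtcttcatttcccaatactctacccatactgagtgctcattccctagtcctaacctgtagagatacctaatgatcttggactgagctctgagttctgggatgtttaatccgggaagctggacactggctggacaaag
Epb41 start at 132049078: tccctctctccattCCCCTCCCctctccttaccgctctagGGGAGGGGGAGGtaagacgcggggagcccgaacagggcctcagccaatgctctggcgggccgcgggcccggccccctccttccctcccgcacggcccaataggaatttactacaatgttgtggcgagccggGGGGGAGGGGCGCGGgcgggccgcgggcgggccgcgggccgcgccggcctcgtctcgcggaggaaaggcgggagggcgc

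The first region held 1 GATA match and 3 CCNCNCCC matches, the second held none of either, and the third held 0 and 6. Over all 32851 regions of this length in the table, 26.5% held a GATA match and 45.9% a CCNCNCCC match. Regions were listed for 7 members, 11 in all, and 4 of them held a GATA match and 8 a CCNCNCCC match. Not all lie before the start of a leading model. The Add2 region precedes 86028681, while Add2-201 starts at 86078084. The Sptb region precedes 76710547, the start of Sptb-201, while Sptb-202 starts at 76710023. The Tmod1 region precedes 46039222 and lies downstream of the start of Tmod1-201, at 46038935. A match describes letters and not a bound site. The table had no entry for Ank1 or Dmtn.

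Epb42 (ENSMUSG00000023216, chr2:121017891-121037072, minus strand) was led by a model that reads into an intron. Epb42-201 held 50.7% and 52.2% of Epb42 TPM and 60.2% and 59.3% of its counts, while Epb42-202, with 13 exons and 691 codons, held 7.46% and 4.62% of TPM. Epb42-206 held 19.4% and 16.4%, and Epb42-203 7.57% and 18.0%; both are processed transcripts. The last exon of Epb42-201 runs from 121024784 to 121023650 of chromosome 2 past the splice site that Epb42-202 and Epb42-203 use. Over these 3 models the unspliced form held 77.1% and 69.8% of TPM, and by counts 73.0% and 68.6%. The 2 coding models part after codon 539, from which Epb42-201 has 134 more codons and Epb42-202 has 152. The bases after that point show the 2 products, in capitals (chr2:121024440-121024484 and chr2:121021848-121021892, GRCm38, minus strand); those of Epb42-201 open with the GT of the splice donor.
Epb42-201: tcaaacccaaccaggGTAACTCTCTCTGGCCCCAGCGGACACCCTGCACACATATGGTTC
Epb42-202: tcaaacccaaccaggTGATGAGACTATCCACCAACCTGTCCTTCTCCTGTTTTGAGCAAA

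The distal last exon of Epb42, shared by 4 models, held 45.8% and 46.1% of TPM, and the last exon of Epb42-201 held the 50.7% and 52.2% given above. Of the distal part, Epb42-206 and Epb42-205 are fragments that begin near the 3′ end and cannot show which upstream exons they carry. Total RNA holds unspliced precursor RNA as well as mature message. How far reads from precursor RNA enter the share of Epb42-201 was not tested.

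Among the adducins, Add1 (ENSMUSG00000029106, chr5:34573664-34632308, plus strand) had 13 transcripts and its TPM was taken mainly by short models. Add1-206, of 407 bases and incomplete at both ends, held 26.7% and 13.5% of TPM from 841 and 295 counts. The retained introns Add1-208 (8.75% and 23.8%) and Add1-209 (8.30% and 19.2%) were higher in replicate 2, and all 3 retained-intron models together held 18.5% and 44.8%. Of the full-length models Add1-205 held 15.1% and 13.7% and Add1-204 11.7% and 8.52%. By counts, Add1-205 and Add1-204 held most, with 33.4% and 34.4% and with 27.5% and 22.8%.

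Full-length Add1 models divided evenly over a choice at the end. Alpha adducin is known to exist in a full form and in a form that an extra exon cuts short before the basic carboxyl end. Add1-205, the full form, has 735 codons, and Add1-204, which takes in a 37-base exon (chr5:34629136-34629172, GRCm38, plus strand), has 632. Over the 5 models of over 13 exons, those with this exon or its 34-base form held 51.2% and 47.3% of TPM, and 53.4% and 49.3% of counts. The models part after codon 620, with 12 codons left in Add1-204 and 115 in Add1-205, and capitals mark their own coding bases (chr5:34629136-34629170 and chr5:34630470-34630514).
Add1-204: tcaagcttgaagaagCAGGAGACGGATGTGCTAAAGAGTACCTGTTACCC
Add1-205: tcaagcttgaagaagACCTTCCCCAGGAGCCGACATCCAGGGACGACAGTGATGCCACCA

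Set against Add1-205 and Add1-207, which skip the exon, the models with the 37-base form (Add1-204, Add1-201 and Add1-213) held 58.8% and 51.6% of TPM, and those with the 34-base form 13.5% and 9.04%. Other Add1 exons with a mean inclusion of 10 to 90% each turned on a single partial model. The 279-base exon of Add1-212 had 25.6% and 22.3%. The 102- and 90-base exons, which only Add1-206 skips, had 59.6% and 77.0% and 60.7% and 70.3%. The 50-base exon of Add1-213 had 24.1% and 17.5%.

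Add2 (ENSMUSG00000030000, chr6:86028681-86124409, plus strand) has in the deposited tables only Add2-201, with 16 exons and 725 codons, at 24.84 and 18.65 TPM. Add3 (ENSMUSG00000025026, chr19:53140443-53247399, plus strand) had 3 coding transcripts at a low level, from 2323 and 1062 counts in all. Add3-201 held 60.3% and 60.2% of TPM, while Add3-202 held 31.4% and 12.5% and Add3-203 8.30% and 27.3%. The latter 2 share their coding length of 674 codons and differ in first exon, so the sum over both, and with it the inclusion of a 96-base exon that only Add3-201 holds (chr19:53244310-53244405, GRCm38, plus strand), was nearly the same in both libraries, at 60.3% and 60.1%. A noncoding 62-base exon near the start of Add3-201 has the same values. The 96-base exon adds 32 codons near the end of gamma adducin, and capitals mark it.
Add3 96-base exon: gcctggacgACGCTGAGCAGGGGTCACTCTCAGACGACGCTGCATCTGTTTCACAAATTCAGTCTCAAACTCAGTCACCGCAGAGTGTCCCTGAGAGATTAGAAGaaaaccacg

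Dmtn (ENSMUSG00000022099, chr14:70601263-70636048, minus strand) had 3 coding transcripts. Dmtn-201, with 405 codons, held 62.9% and 68.5% of TPM, Dmtn-202, with 380 codons, 23.1% and 13.3%, and Dmtn-203, with 383 codons, the rest, 16.1% ± 2.98 on average. The larger form of dematin is known to carry an insert of 22 residues in its headpiece that the smaller form lacks. The exon of 66 bases or the 69-base form in Dmtn-202 was present in 86.0% and 81.8% of Dmtn TPM and absent from Dmtn-203. Set against Dmtn-203 alone, the 66-base form was included at 81.8% and 79.0% and the 69-base form at 62.3% and 42.2%.

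Dmtn-202 starts at 70636048 of chromosome 14, far upstream of Dmtn-201 (70627308) and Dmtn-203 (70627054), and so its share is also that of the upstream start. The 5-, 8- and 75-base exons of Dmtn follow the split between Dmtn-202 and the others, with 13.3 to 23.1% for the 5-base exon of Dmtn-202 and 76.9 to 86.7% for the others. The 5-base exon (chr14:70605368-70605372) lies beside the 69-base form of the same model, which ends at 70605365. The gap is too short for an intron, so this exon belongs to the model's annotation and is not read as a splicing choice. The 5-base exon and 69-base form of Dmtn-202 hold together as many bases as the 8-base exon and 66-base form of Dmtn-201. The 8-base exon is thus not read as a splicing choice either, nor the 69-base form as a choice apart from the 66-base form. The lengths of Dmtn-201 and Dmtn-203 differ between the annotation used by the submitters and the release used here for structures, as do those of Add3-202 and Add3-203.

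Tmod1 (ENSMUSG00000028328, chr4:46038935-46116032, plus strand) was expressed as 1 transcript in the main. Tmod1-201, with 10 exons and 359 codons, held 92.6% and 95.6% of TPM and 97.8% and 99.03% of counts. The other 4 models had mean shares of up to 4.05% and 137 or fewer counts each. Of these, Tmod1-205 had 0 counts in both libraries. The gene ends overlap Tstd2 on the opposite strand, which had 234 and 264 counts.

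**Figure D3:**
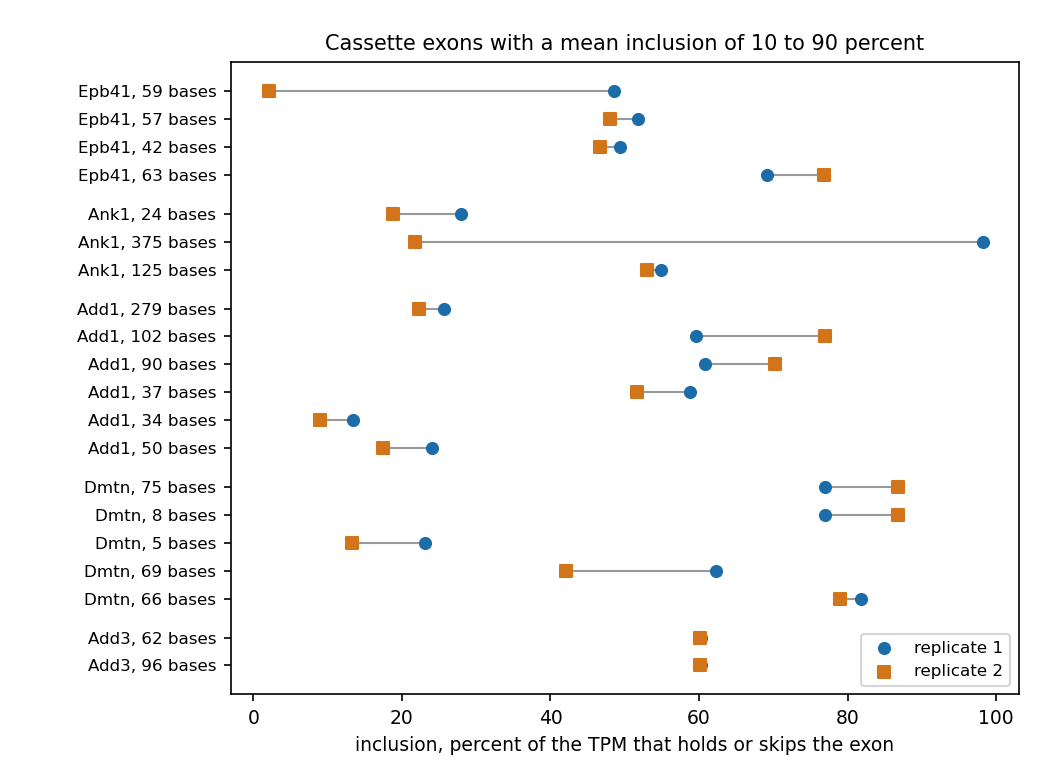
Inclusion of each of the 20 cassette exons with a mean of 10 to 90%, as percent of the TPM of transcripts that hold or skip it, ordered from 5′ to 3′ within each gene. Circles are replicate 1 and squares replicate 2. The 5- and 8-base exons and the 69-base form of Dmtn are plotted but are not read as splicing choices of their own. Most pairs lie close, and the widest gaps, in the 59-base exon of Epb41 (48.5% and 2.10%) and the 375-base exon of Ank1, each rest on models named in the text.

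In all, 36 cassette exons were found in 7 of the genes, and the 20 within the range are those plotted. Both numbers include the 5- and 8-base exons and the 69-base form of Dmtn, which are not read as splicing choices of their own. The 59-base exon of Epb41 is held by Epb41-209 alone and so follows that model's share. Sptb and Add2 had no cassette exon.

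The libraries matched closely for genes and less so for transcripts. At the gene level the log2 ratio of replicate 2 over replicate 1, from counts scaled by TMM, ran from -0.25 for Add3 to 0.29 for Tmod1. None of the 9 genes was 2-fold apart, where 10.5% of 8204 genes were (those whose counts averaged 100 or more). The median was 0.10 for the 9 genes, beside -0.03 for all genes compared and -0.04 for 7670 protein-coding genes. In number, 6 genes were higher in replicate 2 and 3 lower (Epb42, Add1 and Add3), and with scaling by library size alone 4 were higher and 5 lower. On the coding-scaled TPM used for the levels, Add1 was higher in replicate 2 (0.21) and Epb41 lower (-0.05), so the direction of these genes is not settled, and the range ran from -0.17 for Add3 to 0.52 for Ank1.

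Single values show the size of these gaps. Sptb had 104023 and 67976 counts, a ratio of 0.26 with a 95% Clopper-Pearson interval from 0.25 to 0.28. Ank1 had 79079 and 48256 counts, a ratio of 0.17 (0.15 to 0.18). Epb41 had a ratio of 0.10 (0.08 to 0.11) and Add3, with the fewest counts, -0.25 (-0.36 to -0.15). The intervals cover counting error alone, as reads were not tagged by molecule. All 9 exclude 0, and that of Add1 (-0.08 to -0.02) takes in the median of all genes.

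Of 52 member transcripts with a mean count of at least 100, 17 were at least 2-fold apart, 10 of them higher in replicate 2 and 7 lower. That is 32.7%, near the 28.5% of all 11922 transcripts. Of 34 member transcripts with a share of at least 5% in a gene of at least 1000 counts, 10 (29.4%) differed by at least 10 percentage points between the libraries, where 43.7% of 5826 did in all genes. They belonged to Ank1 (Ank1-205 and Ank1-206), Epb41 (Epb41-209 and Epb41-212), Epb42 (Epb42-203), Add1 (Add1-206, Add1-208 and Add1-209) and Add3 (Add3-202 and Add3-203). None belonged to Sptb, Dmtn or Tmod1, though Dmtn-202 fell just short, at -9.79 points. Of Tmod1 only Tmod1-201 reached a share of 5%. Of Sptb only Sptb-201 and Sptb-202 did, and their shares mirror each other.

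**Figure D4:**
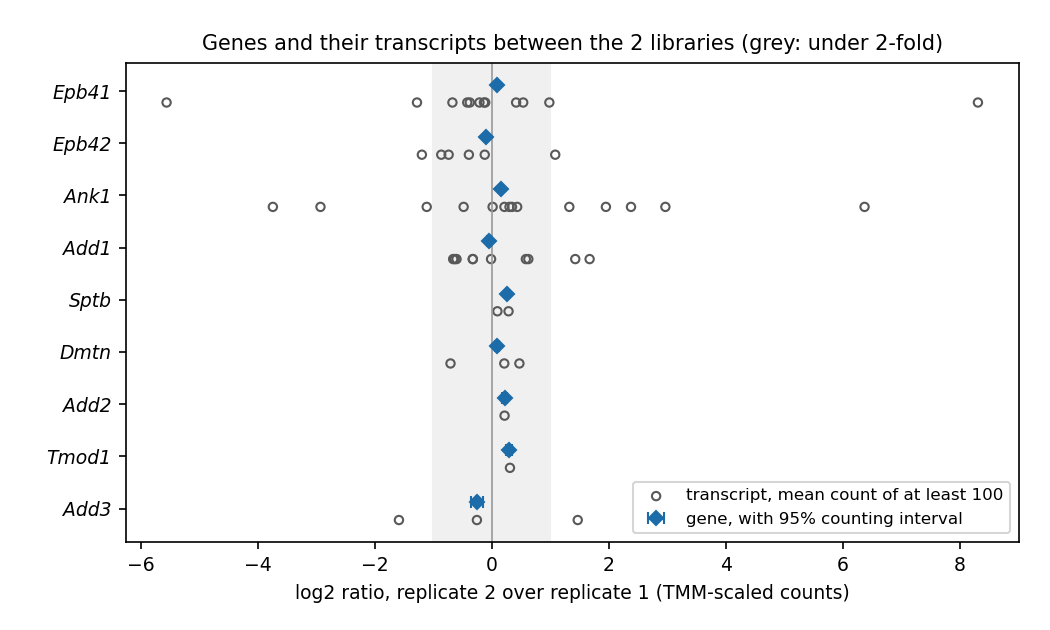
log2 ratio of replicate 2 over replicate 1 for each gene (diamond, with its 95% counting interval) and for its transcripts with a mean count of at least 100 (open circles), with under 2-fold shaded grey. The 9 genes lie between -0.25 and 0.29, while transcripts of Epb41 and Ank1 spread far beyond the shaded range; the point beyond 8 is Epb41-202, with 0 counts in replicate 1 taken as 3.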

How the data were processed

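Gene and transcript tables of 2 libraries of total RNA from mouse erythroblasts were used as deposited. The authors' files give, per the file headers, expected counts, TPM, posterior mean TPM with credibility bounds, FPKM (not used) and each transcript's share of its gene's TPM in percent. The assembly is mm10 per the labels; GENCODE M4 is the annotation that the deposited text records name. Aligner, quantification program and strand setting: not given in the sources used here.

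TPM was rescaled over 21461 nuclear protein-coding genes. Symbols and structures came from GENCODE M21 (GRCm38), in which all 70 transcripts were found by identifier; 4 differ in length, and transcripts new in M21 have no values. Start sites within 100 bases formed 1 group. Cassette inclusion is the TPM of transcripts that hold an internal exon over that of those that hold or skip it. Sequences came from the GENCODE transcripts and RefSeq start regions (GRCm38.p6).

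Libraries were compared by the log2 ratio of rounded expected counts scaled with TMM (edgeR 4.0.16, R 4.3.3), with exact 95% Clopper-Pearson intervals, which was tested on simulated data; DESeq2 1.42.0 size factors were an alternative. Left out were features that are no Ensembl gene, with 8 and 28 counts. No test was run. Scripts ran on Python 3.11.15 with scipy 1.17.1, pandas 2.3.3, numpy 2.4.6 and, for figures, matplotlib 3.10.9.

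All 9 members are named, with every transcript of at least 10% mean share and every cassette exon of 10 to 90% mean inclusion; others were named after their values were seen, as were the start codon, exon combination and exon form shares and the values without Epb41-209. The members and lists were chosen with earlier results of these data known. Some items are not reported here.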

Additional observations from a re-analysis of the deposited data

How the results depend on the processing

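Under the alternatives that kept both libraries, 137 of 215 values moved by less than the spread between the libraries (for counts of genes, by less than 1.5 times; for log2 ratios, within the counting interval) and 78 moved more. A mean of 2 libraries cannot move past its SD when 1 is left out, so those values say nothing of stability. Over protein-coding transcripts alone, the inclusion of the 63-base exon of Epb41 was 96.5% in place of 73.0%. As a share of expected counts, Sptb-202 held 88.6% in place of 90.9%. Genes at least 2-fold apart rose from 862 of 8204 (10.5%) to 3351 of 12757 (26.3%) with a mean count of at least 10. With no filter on low counts they were 5341 of 16568 (32.2%). These filters leave the log2 ratios of the 9 members unchanged, from -0.25 to 0.29, so they could not add a member. With DESeq2 size factors, library size alone or coding-scaled TPM, which do change the ratios, none of the 9 members was at least 2-fold apart. With 1 library left out, the inclusion of the 63-base exon ran from 69.2% to 76.9%, the share of Sptb-202 from 90.4% to 91.5%, related genes detected from 15 to 16, and genes in the same place of the order from 7 to 9. The count of 6 genes with a leading transcript over 50% held under every setting run. Related genes detected numbered 14, with deposited TPM 12 and with posterior mean TPM 20. With no length correction 8 of the 9 levels moved, and Sptb and Ank1 passed Epb42. Leaving the adult globin genes out of the rescaling raised all 9 levels (Epb41 from 3273 to 5114). Scaled by library size alone, the log2 ratio had a median of -0.18 over all genes in place of -0.03. No paired analysis was possible because the study has 1 group. With 2 libraries an SD is itself poorly known, and the split of reads among models that share exons is an estimate.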
